A study of Mus musculus with 4 samples.

Results

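*Lrrc15* was followed, as 1 gene of a 328-gene Xenium panel, through hair shaft-like cells, other keratinocyte-like cells and fibroblast-like cells of every tissue section on the 4 slides. Xenium is an imaging assay that places single RNA molecules in tissue, and each molecule with a quality score of at least 20 inside a cell outline was counted as 1 transcript of that cell. Of 514895 cells in sections, 426404 held 10 or more transcripts and were clustered without *Lrrc15* and *Pitx1*. Of these, 7150 were hair shaft-like, 142987 other keratinocyte-like and 92093 fibroblast-like.

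The mice carried TRE-*Pitx1* and *Krt5*-rtTA transgenes, so that doxycycline induces the transcription factor PITX1 in cells with an active *Krt5* promoter. Control animals had the same transgenes and ate normal chow, and PITX1+ animals ate doxycycline chow from the resting hair phase onward. A male and a female slide held unwounded dorsal skin (3 Control and 4 PITX1+ sections), a slide held healthy buccal mucosa (7 sections), and a male slide held skin wounds at day 4 (1 Control and 2 PITX1+ sections). Female skin gave Control sections 1 and 2 and PITX1+ sections 1 and 2, and male skin gave Control section 3 and PITX1+ sections 3 and 4. The labels name the conditions of a slide and not of a section, so the condition of a section is an assignment and not a label. Sections were taken as Control or PITX1+ by their order across the slide. As a comparison that used no gene, the number of cells with 3 or more genes was set against the section totals in the study's supporting data. In 14 of 14 unwounded sections the nearest total was one of the same condition, off by at most 4.91%, while totals listed for other conditions differed by 8.64% or more. The wound sections could not be compared in this way. The study counts its unwounded PITX1+ Xenium specimens as mice, in the same number as the sections here, while the labels tie no section to an animal. The p-values measure the spread between these sections.

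The induced gene was examined first. Over all cells, *Pitx1* was 74.7, 54.1 and 12.6 counts per 1000000 transcripts of the same cells (CPM) in the Control sections. It was 53.6 and 63.2 CPM in the female sections assigned to PITX1+, the first below both female Controls and the second between them. It was 722 and 436 CPM in the male sections assigned to PITX1+, well above the male Control. The *Pitx1* level therefore separated the conditions on the male slide and not on the female slide, and every direction below that rests on the female sections carries this limit. In the wounds *Pitx1* was 62.9 CPM in the section assigned to Control and 339 and 135 CPM in those assigned to PITX1+.

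LRRC15 is a membrane protein with leucine-rich repeats, a fold that binds other proteins and matrix. It is best known on activated fibroblasts of tumours and of healing or inflamed tissue, where TGF-beta signalling induces it. A growing hair is built by matrix keratinocytes that surround the dermal papilla, a cluster of specialised fibroblasts, and that differentiate upward into the shaft and its sheaths.

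*Lrrc15* was scarce in Control skin and abundant in sections assigned to PITX1+. Over all cells it was 116, 70.2 and 116 CPM in the 3 Control sections. It was 750 and 1618 CPM in the female PITX1+ sections and 4783 and 2629 CPM in the male ones. Every PITX1+ section lay above every Control section, on both slides, and the means were 2445 ± 1738 (SD, n = 4) and 101 ± 26.4 CPM (n = 3). An exact two-sided permutation test over sections gave p = 0.0571, the smallest value that 4 against 3 sections can give. *Lrrc15* was chosen for study with these levels known, so the p-values on its level by condition describe the fit and are no independent evidence. The share of panel genes that separate the sections in the same way over all cells was not counted.

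Hair shaft-like cells held by far the highest level per transcript. These cells formed 1 cluster led by *Dsg4*, which encodes the hair desmoglein, by *Krtap17-1*, a hair keratin-associated protein, and by the transcription factor gene *Dlx3*. In the PITX1+ sections *Lrrc15* was 24867, 27311, 44944 and 28860 CPM in these cells, a mean of 31496 ± 9115 (SD, n = 4). Between 38.6% and 59.2% of the cells held the transcript, at 1.54 to 4.68 copies a cell, and 1 cell held 128. For comparison, 0.691% to 2.97% of immune-like cells in the same sections held it, at median depths of 24 to 63 transcripts against 56 to 107 in hair shaft-like cells.

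The Control skin sections had almost no cells of this kind. They held 2, 0 and 1 hair shaft-like cells, none with *Lrrc15*, so the level in Control hair shaft-like cells was not measurable at this depth. The count of 0 among 11778 cells of Control section 2 allows a share of up to 0.0255%. Hair shaft-like cells made up 1.31%, 3.65%, 4.49% and 2.94% of cells in the PITX1+ sections and at most 0.0115% in Control skin (exact two-sided permutation p = 0.0571, the smallest possible). The higher *Lrrc15* of whole PITX1+ sections thus went together with a larger share of this class. The Control counts depend on the clustering. They were again 2, 0 and 1 with 60 clusters, but 101, 50 and 30 with 30 clusters. The PITX1+ sections then held 1075, 2955, 1926 and 925.

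The Control wound was the exception among Control sections. It held 725 hair shaft-like cells with 22655 CPM *Lrrc15*, and 45.5% of them held the transcript. PITX1+ wound 1 held 380 such cells with 33326 CPM. PITX1+ wound 2 held 9, without *Lrrc15*, and the buccal sections held none. With 30 clusters each buccal section held 5 to 46, all without *Lrrc15*. The Control wound level lay just below the lowest unwounded PITX1+ section and that of PITX1+ wound 1 within their range, with 1 section on the Control side and no test.

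**Figure D1:**
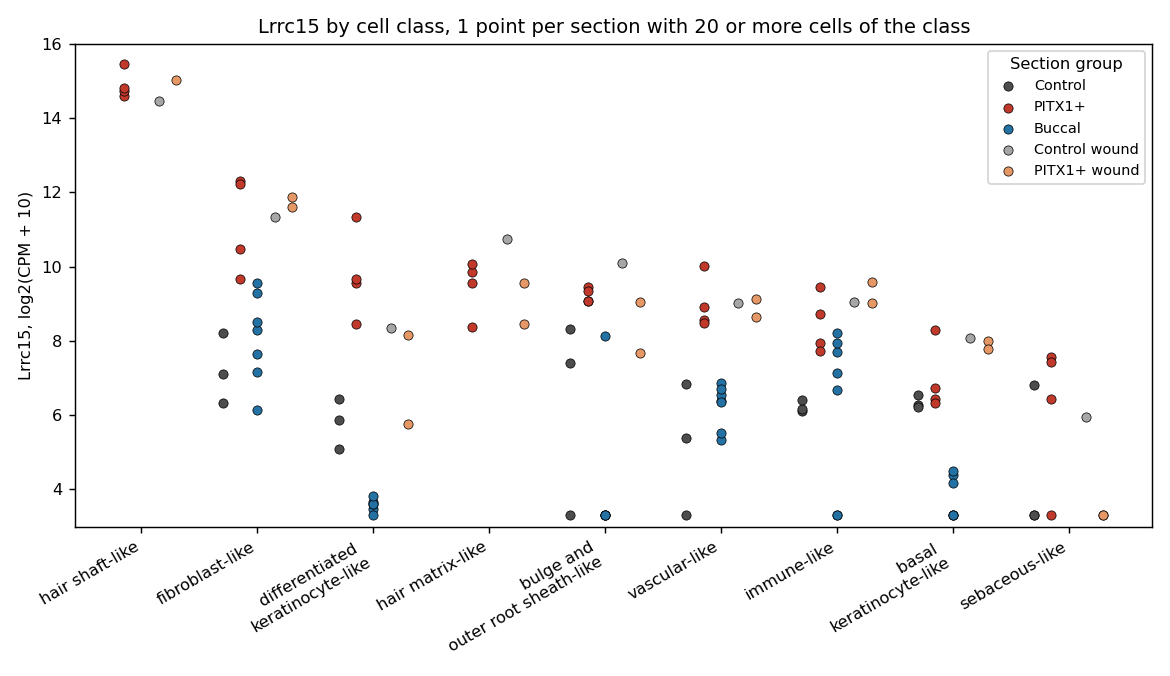
*Lrrc15* by cell class. Each point is 1 section with 20 or more cells of the class, coloured by group, and the vertical axis gives log2(CPM + 10). Hair shaft-like cells stand above every other class wherever they occur, and fibroblast-like cells of PITX1+ and wound sections come next. No Control or buccal section had 20 hair shaft-like cells.

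Within the hair shaft-like class, *Lrrc15* was highest in cells that also held *Krtap17-1*. In the PITX1+ sections it was 31909, 56237, 71181 and 63425 CPM in cells with *Krtap17-1*, and 17766 to 37730 CPM in those without. Cells with *Krtap17-1* were a minority of the class, 51 of 747, 189 of 2746, 311 of 1717 and 165 of 823. Where hair shaft cells were instead defined by 2 or more *Krtap17-1* transcripts, the 4 sections gave 54577 to 68342 CPM, from 33, 129, 252 and 135 cells. The same definition gave 43950 CPM in the Control wound and 63919 CPM in PITX1+ wound 1. *Shh*-positive hair matrix-like cells, the dividing precursors, held far less. Their level was 0, 363, 814 and 352 CPM in the PITX1+ sections.

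Inside the class, *Krtap17-1*, *Dsg4* and *Bmp2* were higher and *Krt5*, *Wnt5a* and *Areg* lower in cells with *Lrrc15*. Cells with and without a transcript were summed in each of the 4 PITX1+ sections and compared with edgeR's quasi-likelihood test with the section as a block and Benjamini-Hochberg adjustment. Of 288 genes, 95 passed an adjusted p of 0.05 (33%), of which 52 were higher (18.1%) and 43 lower (14.9%) in cells with *Lrrc15*, with a median log2 fold change of 0.04 over all genes. Scaling by library size in place of TMM moved that median to -0.39 and the split to 36 higher and 89 lower. The summed level of 8 hair differentiation genes was 162972 to 204978 CPM in cells with and 71258 to 86958 CPM in cells without *Lrrc15*. *Krtap17-1* was 3335 to 18003 CPM with and 278 to 1690 CPM without *Lrrc15*, higher in 4 of 4 sections (log2 fold change 3.62 ± 0.53 (SE), edgeR adjusted p = 2.37e-04). That is the co-occurrence given above and no separate evidence. *Krtap17-1*, *Dsg4*, *Dlx3* and *Mt4* were also among the markers that named the class and entered its clustering. Cells with *Lrrc15* were deeper, with medians of 61, 63.5, 107 and 120 transcripts against 54, 59, 82 and 97. Among cells of 30 to 100 transcripts alone, 82 genes passed, of which 79 were shared in the same direction.

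The other genes that led the rise were *Bmp2*, a growth factor of the differentiating shaft, at log2 3.43 ± 0.16, the cornified envelope gene *Sprr2a3* at 3.21 ± 0.41, the prostaglandin-degrading enzyme gene *Hpgd* at 3.08 ± 0.27, and *Acta2*, smooth muscle actin, at 2.93 ± 0.44. Of these 8 hair differentiation genes, 4 rose, namely *Krtap17-1*, *Dsg4* (log2 2.10 ± 0.12), *Dlx3* (1.14 ± 0.12) and the metallothionein gene *Mt4* (2.46 ± 0.14). *Shh*, *Wnt10a*, *Krt75* and *Lhx2* did not pass the test. Directions of the genes named as changed here were the same under library size scaling. Without PITX1+ section 3, 62 genes passed.

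Among the largest falls, the EGF receptor ligand gene *Areg* changed by log2 -2.09 ± 0.20, *Cntfr*, a cytokine receptor, by -1.91 ± 0.24, the growth factor gene *Ptn* by -1.71 ± 0.43 and the mitotic gene *Cenpf* by -1.70 ± 0.39. Of 8 basal keratinocyte markers, 5 fell and none rose. *Krt5*, the keratin of the basal layer, was 3335 to 10689 CPM with and 7362 to 19186 CPM without *Lrrc15*. Their summed level was 19578 to 40112 CPM with and 34746 to 74753 CPM without, lower in 4 of 4 sections. Some genes on the marker lists of other cell types rose with *Lrrc15*. Of the 14 immune markers tested these were *Cd68* (log2 0.81 ± 0.28, edgeR adjusted p = 0.0432, not passing in 6 of 8 alternatives) and *S100a8* (1.59 ± 0.31). The study also counts *S100a8* among markers of activated keratinocytes. *Flt1* (1.82 ± 0.48) of the 7 vascular markers tested and the collagen gene *Col1a1* (0.81 ± 0.21) rose too. The summed immune marker level was 2571 to 4411 CPM with and 960 to 6198 CPM without *Lrrc15*, and the vascular sum 634 to 2689 and 301 to 2705 CPM, each higher with *Lrrc15* in 2 of 4 sections. Their part in the differences was not tested.

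Fibroblast-like cells were the second class. *Lrrc15* was 127, 70.5 and 287 CPM in the Control sections, which rest on 14, 9 and 39 transcripts. It was 808 and 1412 CPM in the female and 5045 and 4791 CPM in the male PITX1+ sections. The groups did not overlap on either slide, and the share of fibroblast-like cells with a transcript was 2.74% to 18.4% in PITX1+ against 0.225% to 0.684% in Control. The mean was 3014 ± 2215 CPM (SD, n = 4) against 162 ± 112 CPM (n = 3). In a spatial assay, as in bulk tissue, more cells that make a transcript and more transcript per cell add to the same summed level.

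edgeR's quasi-likelihood test with slide as a covariate gave a log2 fold change of 3.58 ± 0.39 (SE) and a Benjamini-Hochberg adjusted p of 1.48e-04, the smallest p among 328 genes. In this comparison 22 genes passed (6.71%), 15 of them higher in PITX1+ (4.57%) and 7 lower (2.13%), and for 25 genes (7.62%) all PITX1+ sections lay above all Control sections. Scaling by library size in place of TMM gave 21 higher and 3 lower. The change on the male slide minus that on the female slide was log2 0.26 ± 0.70 (edgeR adjusted p = 0.901). It rests on 1 male Control section, which the fit assumes to vary like the other groups, so it says little on whether the slides differ. *Pitx1* set the conditions apart on the male slide only, and no fit was made on that slide alone. Without the slide covariate the log2 fold change was 4.06 and the edgeR adjusted p was 0.391.

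Few other genes of the fixed lists passed in the same comparison. Of the 14 TGF-beta responsive matrix and contractile genes, *Timp1* and *Ccn4* rose and *Tgfbi* fell, and none of the 7 TGF-beta ligands, receptors and activators passed. *Wif1*, a Wnt inhibitor of the dermal papilla, and the Hedgehog receptor gene *Ptch1* rose and *Bmp4* fell among the 8 dermal papilla and sheath genes, and *Saa3* and *Timp1* rose among the 7 inflammatory genes. *Gpx3* fell among the 7 adventitial and reticular genes. None of the 5 leucine-rich repeat genes passed. None of the 8 hair differentiation genes passed either, and their summed level in fibroblast-like cells was 309 to 1717 CPM in Control and 893 to 1485 CPM in PITX1+. Outside these lists the keratinocyte keratin genes *Krt17* (log2 1.94 ± 0.32, edgeR adjusted p = 0.00691) and *Krt6a* (1.74 ± 0.45, edgeR adjusted p = 0.0326) also rose in fibroblast-like cells, and *Krt77*, a keratin of differentiated epidermis, fell (-1.98 ± 0.54, edgeR adjusted p = 0.0449). *Krt17* was 552 to 2743 CPM in Control and 2040 to 11366 CPM in PITX1+, with the groups overlapping, and *Krt6a* 31.4 to 90.8 and 148 to 386 CPM. *Krt77* was 1190, 894 and 73.6 CPM in Control and at most 282 CPM in PITX1+, and the groups overlapped through the male Control section. Their part in the *Lrrc15* change was not tested. None of 8 basal keratinocyte, 19 immune and 8 vascular markers passed, with summed basal marker levels of 2702 to 7658 CPM in Control and 5093 to 8308 CPM in PITX1+.

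*Lrrc15* differed widely among the fibroblast-like clusters. It was highest in cluster 7, led by *Wif1*, *Cdh11* and *Cyp26b1*, with 1813 to 17152 CPM in the PITX1+ sections (mean 8638 ± 7299, n = 4) and 11041 CPM in the Control wound. A cluster led by *Ccl19*, *Lum* and *Efemp1* followed, with 1168 to 4529 CPM in the PITX1+ sections. The cluster led by *Timp1*, *Tnc* and *Ccn4* had 1312 to 3663 CPM in 3 PITX1+ sections. The lowest mean, 135 CPM with a range of 62.0 to 222, was in the cluster led by *Gpx3*, *Pi16* and *Tnxb*, genes of the vessel sheath and the deep dermis. The ranges of the first 3 overlapped, and the *Pi16* cluster lay below all 3 of them but overlapped with the clusters led by *Mmp3*, *Saa3* and *Cxcl5* (0 to 298 CPM in 3 sections) and by *Angptl1*, *Abca8a* and *Igfbp6* (0 to 502 CPM).

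**Figure D2:**
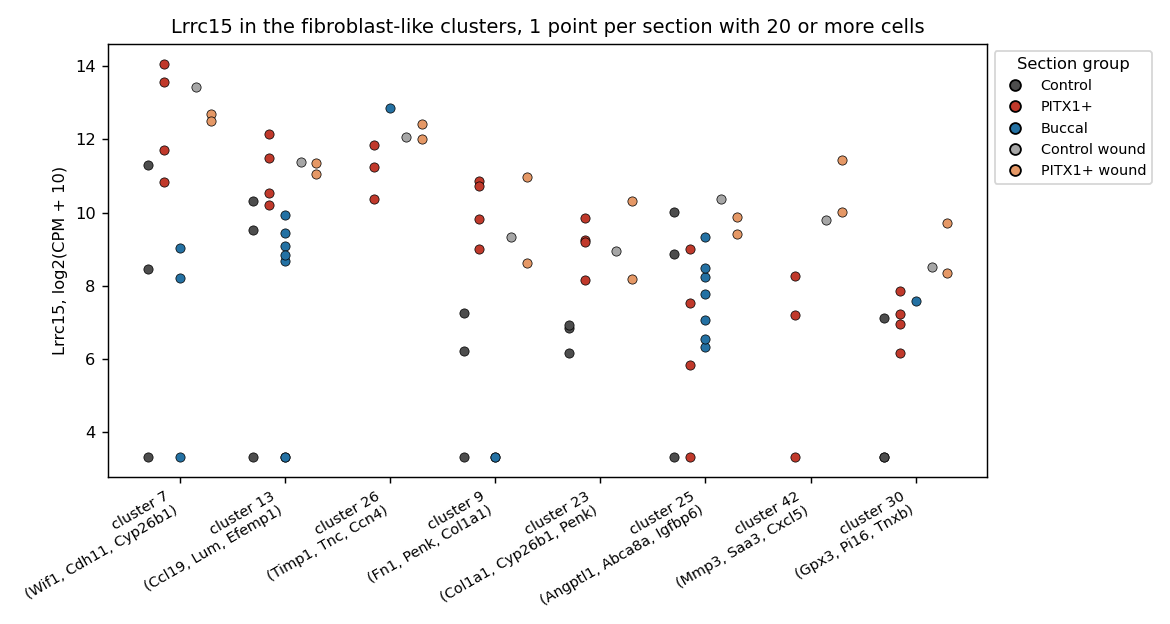
*Lrrc15* in the fibroblast-like clusters. Each point is 1 section with 20 or more cells of the cluster, the vertical axis gives log2(CPM + 10), and clusters are ordered by their PITX1+ mean and named by 3 leading genes. The *Wif1* cluster is on the left, at 1813 to 17152 CPM in PITX1+, and the *Pi16* cluster on the right, at 62.0 to 222 CPM.

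The next contrast, of genes inside the fibroblast-like class, is no separate evidence for the cluster differences. The clusters were made from these genes, and the cluster was not a block. *Wif1* rose and *Gpx3*, *Pi16* and *Tnxb* fell, as in the highest and lowest clusters. *Lum* (log2 -0.94) and *Efemp1* (-1.39), which lead the second cluster, also fell. Cells with and without *Lrrc15* were compared with edgeR's quasi-likelihood test with a section block, over the 4 PITX1+ sections and Control section 3, which had enough cells with the transcript. Of 322 genes, 119 passed (37%), with 48 higher (14.9%), 71 lower (22%) and a median log2 fold change of -0.11. Cells with *Lrrc15* were also deeper, for example a median of 75 against 48 transcripts in PITX1+ section 2. Among cells of 30 to 100 transcripts alone, 79 genes passed, of which 75 were shared in the same direction. Without PITX1+ section 3 the count was 54 and without section 4 it was 62.

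All 7 adventitial and reticular genes fell, with a list median of -1.46. Among them *Col14a1* did not pass in 5 of 10 alternatives and *Angptl1* in 3 of 10. *Gpx3*, an extracellular glutathione peroxidase, was 1596 to 5926 CPM with and 8557 to 47855 CPM without *Lrrc15*, lower in 5 of 5 sections (log2 fold change -2.65 ± 0.34, edgeR adjusted p = 7.87e-04). *Pi16* was 603 to 3457 CPM with and 2384 to 10919 CPM without. Of the 7 inflammatory genes 4 fell, among them *Saa3* by log2 -1.89 ± 0.21 and *Mmp3*, a matrix metalloprotease, by -2.09 ± 0.40. Of the 8 dermal papilla and sheath genes, *Wif1* (1.77 ± 0.34), *Ptch1* (1.39 ± 0.23), *Dkk2* (0.98 ± 0.26) and *Acta2* rose and none fell. *Dkk2* did not pass in 4 of 10 alternatives, while *Wif1*, *Ptch1* and *Acta2* passed in each.

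The TGF-beta lists were divided. Of the 14 responsive matrix and contractile genes, 6 rose, among them *Ccn4* (1.46 ± 0.30), *Postn*, encoding periostin (0.86 ± 0.26), and *Tnc*, encoding tenascin C (0.67 ± 0.20). The other 3 that passed fell, namely *Tgfbi* (-1.47 ± 0.35), *Fn1*, encoding fibronectin (-0.73 ± 0.20), and *Cnn1*. Of the 7 ligands, receptors and activators, *Thbs1*, which activates latent TGF-beta, rose and the co-receptor gene *Tgfbr3* fell. Several of these calls were not firm. *Thbs1* and *Palld* did not pass in 5 of 10 alternatives, and *Postn*, *Cnn1* and *Col6a1* in 4 of 10, while *Ccn4* and *Tgfbi* passed in each. *Lgr6* and *Lrig1* rose and *Lum* fell among the 5 leucine-rich repeat genes, and *Lrig1* (edgeR adjusted p = 0.0487) did not pass in 6 of 10 alternatives.

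Markers of other cell types moved with *Lrrc15* in this contrast. The largest rises were *Krt15* (log2 1.87 ± 0.35), a keratin of follicle keratinocytes, *Igfbp2* (1.83 ± 0.33), *Cdh3* (1.82 ± 0.52), *Wif1* and *Lgr6* (1.76 ± 0.41). Of 8 basal keratinocyte markers 6 rose, and their summed level was 7414 to 16998 CPM with and 2557 to 6163 CPM without *Lrrc15*, higher in 5 of 5 sections. Of the 8 hair differentiation genes *Dlx3* (log2 1.61) and *Lhx2* rose, while *Dsg4* (log2 0.29 ± 0.33) and *Krtap17-1* (-0.11 ± 0.35) did not pass. *Dlx3*, *Dsg4* and *Krtap17-1* all lead the hair shaft-like cluster, so its leading genes were divided here. *Gpx3*, *Cxcl13*, *Kcna1*, *Retnla* and *Mcpt4* had the largest falls, and *Retnla* was lower in 3 of 5 sections. Of 19 immune markers 11 fell and none rose, and of 8 vascular markers 6 fell. The part of neighbouring cells' transcripts in these differences was not tested.

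**Figure D3:**
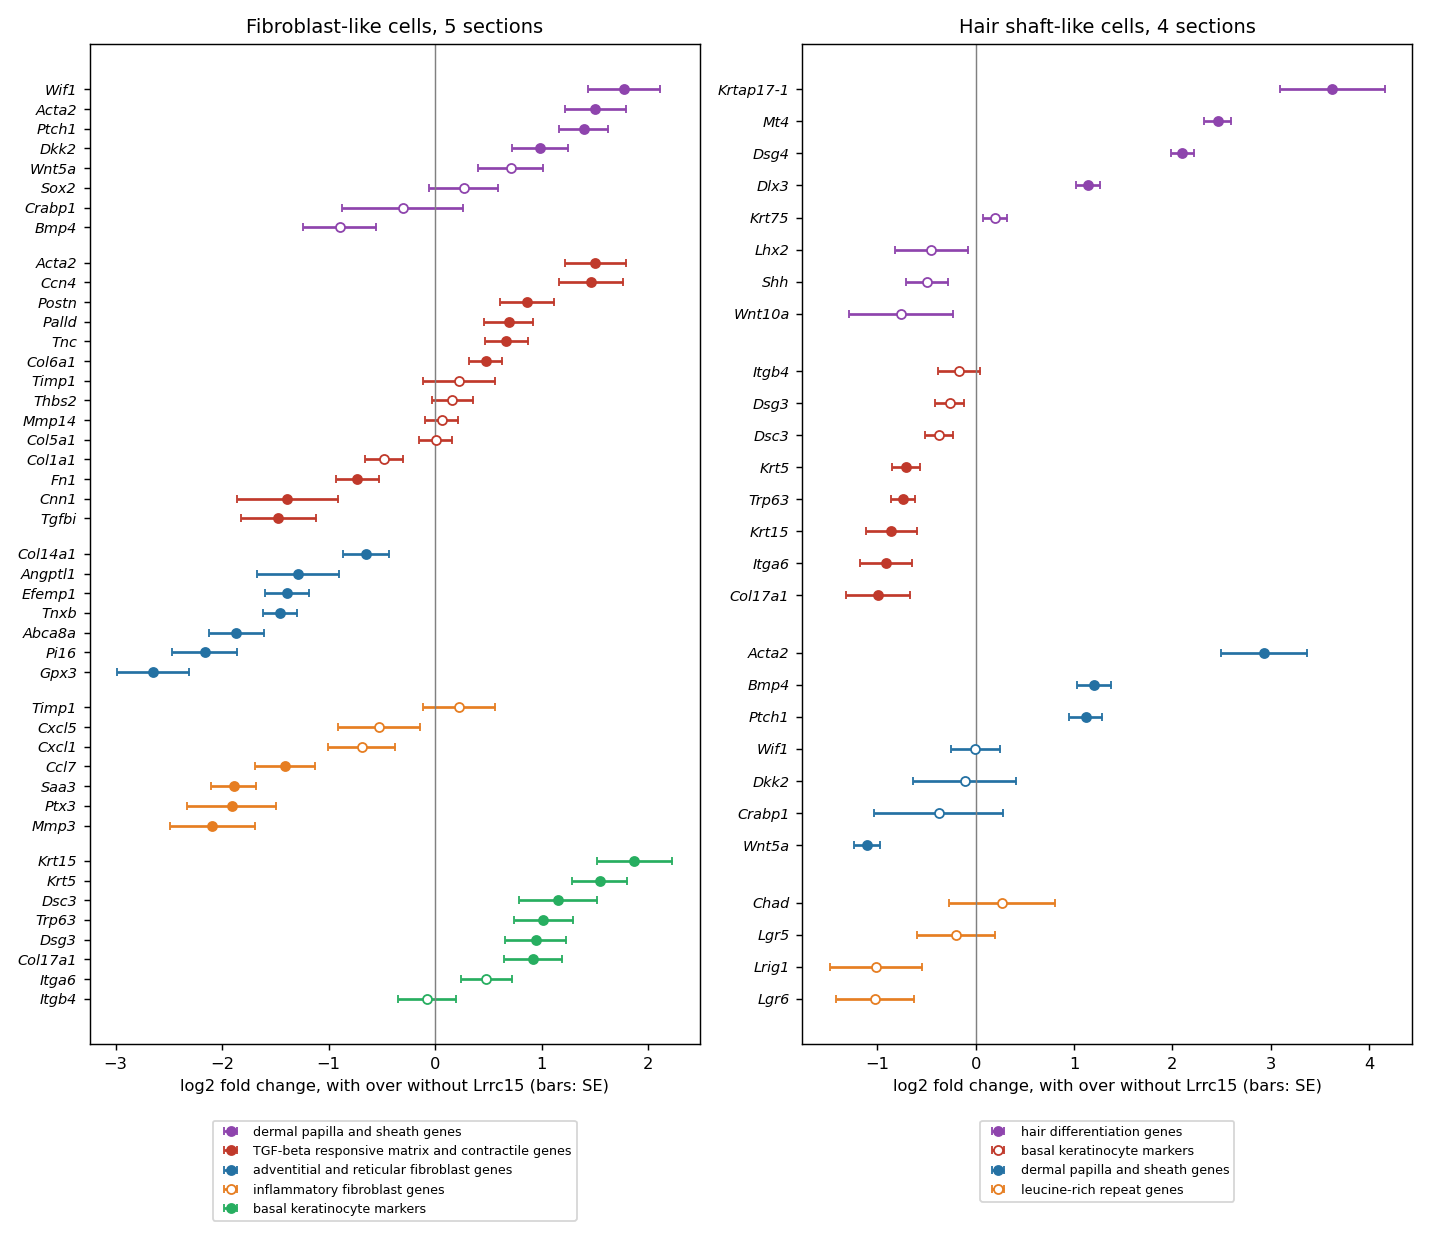
Genes of the fixed lists in cells with against cells without *Lrrc15*, in fibroblast-like cells of 5 sections (left) and hair shaft-like cells of 4 sections (right). Points give the edgeR log2 fold change and bars its SE, filled where the adjusted p was under 0.05. On the left all 7 adventitial genes lie below 0 and 6 of 8 basal keratinocyte markers are filled above 0. On the right *Krtap17-1*, *Mt4*, *Dsg4* and *Dlx3* lie above 0.

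Fibroblast-like cells close to hair shaft-like cells held more *Lrrc15* than those farther away. Within 50 µm of a hair shaft-like cell centre the level was 1791, 3366, 9801 and 14711 CPM in the PITX1+ sections, and beyond it 759, 1160, 3976 and 3099 CPM. The near cells were higher in 4 of 4 sections, by a mean of 1.57 on the log2(CPM + 10) scale (exact two-sided sign-flip p = 0.125, the smallest that 4 sections can give). In the Control wound the levels were 8155 and 1847 CPM, and in PITX1+ wound 1 they were 5084 and 3011 CPM. *Dsg4*, made by the hair shaft-like cells, was also higher in the near fibroblast-like cells, at 51.2 to 409 CPM against 15.7 to 212 CPM in the PITX1+ sections. *Dlx3*, another leading gene of those cells, was 955 to 1710 CPM near and 240 to 363 CPM far. Its near minus far difference, 1.74 to 2.32 on the same log2 scale, was larger than that of *Lrrc15* in 4 of 4 sections. For *Lrrc15* the differences were 1.23, 1.53, 1.30 and 2.24. They were smaller for *Krtap17-1* (0.18, 0.45, 1.28 and 1.20, from 2 to 13 near transcripts). *Dsg4* had 0.92, 0.86, 1.61 and 1.25, larger than *Lrrc15* in PITX1+ section 3 only. The part of neighbouring cells' transcripts in the near level was not tested.

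The *Lrrc15* level of fibroblast-like cells did not fall steadily with distance in every section. It fell from each distance bin to the next in PITX1+ sections 3 and 4. From 50 µm outward it was 801, 760, 851 and 669 CPM in PITX1+ section 1 and 2714, 2827, 3158 and 3044 CPM in PITX1+ wound 1. PITX1+ section 2 rose from 3191 to 3399 CPM past 25 µm and the Control wound from 2070 to 2641 CPM past 100 µm. Both fell otherwise. Beyond 400 µm the level was 669, 503, 1641 and 660 CPM in the unwounded PITX1+ sections, all above the Control maximum of 287 CPM. These rest on 104, 13, 9 and 122 transcripts, and the exact 95% counting interval in PITX1+ section 2, 268 to 860 CPM, includes that maximum. With cells beyond 100 µm only, the edgeR log2 fold change of PITX1+ over Control was 3.16 (adjusted p = 8.1e-04), and beyond 200 µm it was 2.67 (adjusted p = 0.0063). In the contrast of cells with and without *Lrrc15*, 98 genes passed beyond 100 µm, with 95 shared. All 7 adventitial and 4 inflammatory genes that fell did so again. Of the 4 dermal papilla and sheath genes that rose, 3 passed again, and *Dkk2* did not (edgeR adjusted p = 0.0917). Of the 6 basal keratinocyte markers that rose, 4 passed again, without *Dsg3* and *Dsc3*. *Palld* (0.124), *Lrig1* (0.132) and *Lhx2* (edgeR adjusted p = 0.0597) also missed the threshold there, as did 2 of 11 immune and 1 of 6 vascular markers that fell.

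**Figure D4:**
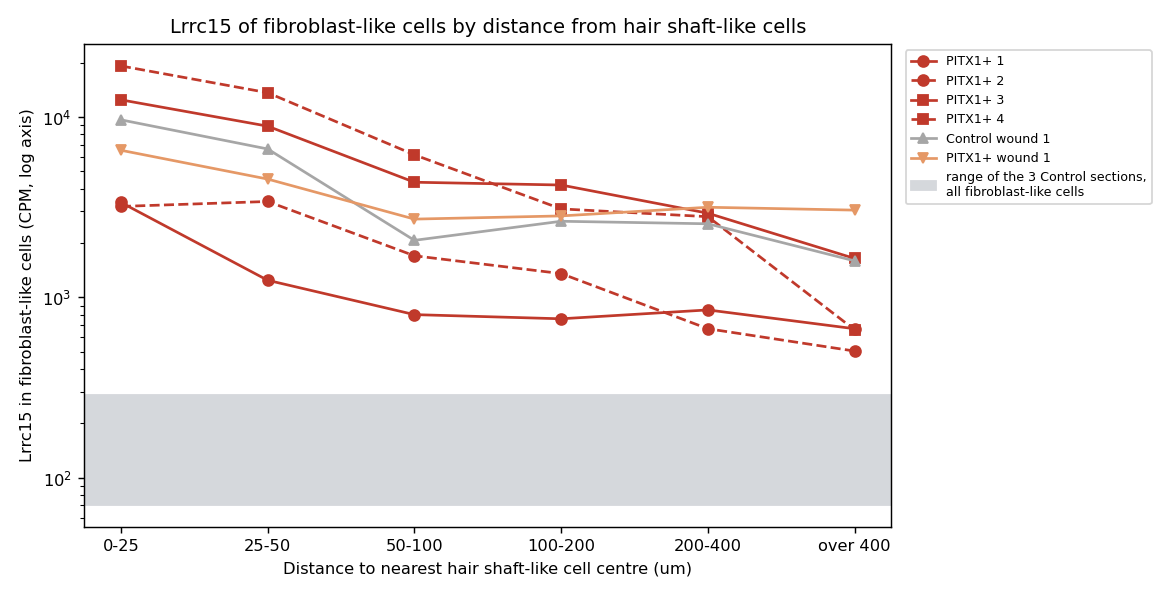
*Lrrc15* in fibroblast-like cells by distance to the nearest hair shaft-like cell centre (µm), on a log axis of CPM, with 1 line per section that held 20 or more hair shaft-like cells. The grey band is the range of the 3 Control sections, 70.5 to 287 CPM. All lines lie above the band, and the 4 PITX1+ lines are lower beyond 400 µm than within 25 µm.

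The ratio of *Lrrc15* to *Dsg4* transcripts is given as a description, since *Dsg4* leads the hair shaft-like cluster and its order between the classes follows from that. It was 0.559 to 1.35 in hair shaft-like cells of the PITX1+ sections and 3.65 to 229 in their fibroblast-like cells, where *Dsg4* was scarce. Control fibroblast-like cells gave 0.467, 0.429 and 39.0, the last with 1 *Dsg4* transcript.

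The position of the transcript inside the cell was also measured. In hair shaft-like cells 39.4% to 44.8% of *Lrrc15* transcripts lay over the nucleus, against 49.7% to 59.8% of transcripts of all genes. In fibroblast-like cells the shares were 38.7% to 51.5% and 35.4% to 45.1%. The hair shaft-like minus fibroblast-like difference in the *Lrrc15* share averaged -3.18 percentage points (exact two-sided sign-flip p = 0.25). The smallest p that 4 sections can give is 0.125, so this test could not detect a difference. It also leaves out that the share of all genes differs between the classes. Against all genes of the same section, the *Lrrc15* share was lower in hair shaft-like cells in each of the 4 sections. In fibroblast-like cells it was higher in each, in PITX1+ section 2 narrowly (38.7% against 36.3%). These directions were not tested. When only transcripts over the nucleus were counted, the fibroblast-like log2 fold change of PITX1+ over Control was 3.46.

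Other keratinocyte-like cells held less. *Lrrc15* was 110, 69.9 and 20.8 CPM in the Control sections and 349, 614, 1398 and 824 CPM in the PITX1+ sections. The groups did not overlap for this class as a whole, and in each PITX1+ section the order was hair shaft-like, fibroblast-like, other keratinocyte-like. That order turned in 1 of 4 sections when hair shaft cells were those with 2 or more *Krtap17-1* transcripts, which leaves the rest of the cluster among the other keratinocyte-like cells. PITX1+ section 2 then had 1994 CPM in other keratinocyte-like and 1411 CPM in fibroblast-like cells, and section 1 had 797 and 808 CPM. edgeR with the slide covariate gave a log2 fold change of 3.48 ± 0.62 and an adjusted p of 0.0159, in a comparison where 93 of 328 genes passed (28.4%), 41 of them higher (12.5%) and 52 lower (15.9%). All PITX1+ sections lay above all Control sections for 33 of the 328 genes (10.1%). Beyond 100 µm from a hair shaft-like cell the change was 1.34 and no longer passed (edgeR adjusted p = 0.128). The levels there were 138, 64.3, 244 and 258 CPM in the PITX1+ and 112, 69.9 and 21.3 CPM in the Control sections. The groups thus overlapped, with PITX1+ section 2 below both female Controls. With cells at all distances but without Control section 2 the edgeR adjusted p was 0.0596. The change was larger on the male than on the female slide by log2 2.65 ± 0.96, which missed the threshold after adjustment over all genes (edgeR adjusted p = 0.179) and rests on the same single male Control section.

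Among the keratinocyte classes of the PITX1+ sections, differentiated keratinocyte-like cells averaged 1121 ± 995 CPM, hair matrix-like cells 766 ± 325, bulge and outer root sheath-like cells 597 ± 80.8, basal keratinocyte-like cells 137 ± 113 and sebaceous-like cells 106 ± 84.1 (SD, n = 4 each). Vascular-like and immune-like cells averaged 554 ± 318 and 386 ± 224 CPM. Cells of unnamed clusters averaged 1402 ± 1020 CPM. In the order of these means each range overlapped with the next, and the hair shaft-like class did not overlap with any of them.

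The transcripts were thus concentrated in few cells. In the PITX1+ sections hair shaft-like cells held 36.8% to 59.4% of all *Lrrc15* in cells while making up 1.09% to 3.98% of cells. Fibroblast-like cells held 12.9% to 42.7% and other keratinocyte-like cells 13.6% to 29.1%. The 1% of cells richest in *Lrrc15* held 42.1% to 79.7% of it. Cells with 5 or more transcripts numbered 127, 448, 711 and 441 in the PITX1+ sections and 0 in each Control section. Of these, 83, 365, 548 and 206 were hair shaft-like, 42, 76, 93 and 25 other keratinocyte-like and 0, 1, 58 and 198 fibroblast-like. Other keratinocyte-like cells outnumbered fibroblast-like cells among them in 3 of 4 sections, and nearly all such fibroblast-like cells were in the male sections.

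In the day 4 wounds most *Lrrc15* outside hair shaft-like cells was in fibroblast-like cells. These had 2590 CPM in the Control wound and 3116 and 3737 CPM in the PITX1+ wounds, and 14.3%, 19.1% and 20.9% of them held the transcript. Unwounded Control section 3, also male but on another slide, had 287 CPM. For PITX1+ the order was the reverse, with 5045 and 4791 CPM in the unwounded male sections, above the PITX1+ wounds. With 1 Control wound there is no replicate check, and wounded and unwounded skin differ in slide as well, which cannot be told apart. The *Timp1*, *Tnc* and *Ccn4* cluster had 4244 CPM in the Control wound and a mean of 4760 CPM in the PITX1+ wounds, and the inflammatory cluster led by *Mmp3*, *Saa3* and *Cxcl5* had 882 and 1885 CPM. In PITX1+ wound 2, with 9 hair shaft-like cells, fibroblast-like cells held 75.9% of the *Lrrc15* in cells.

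**Figure D5:**
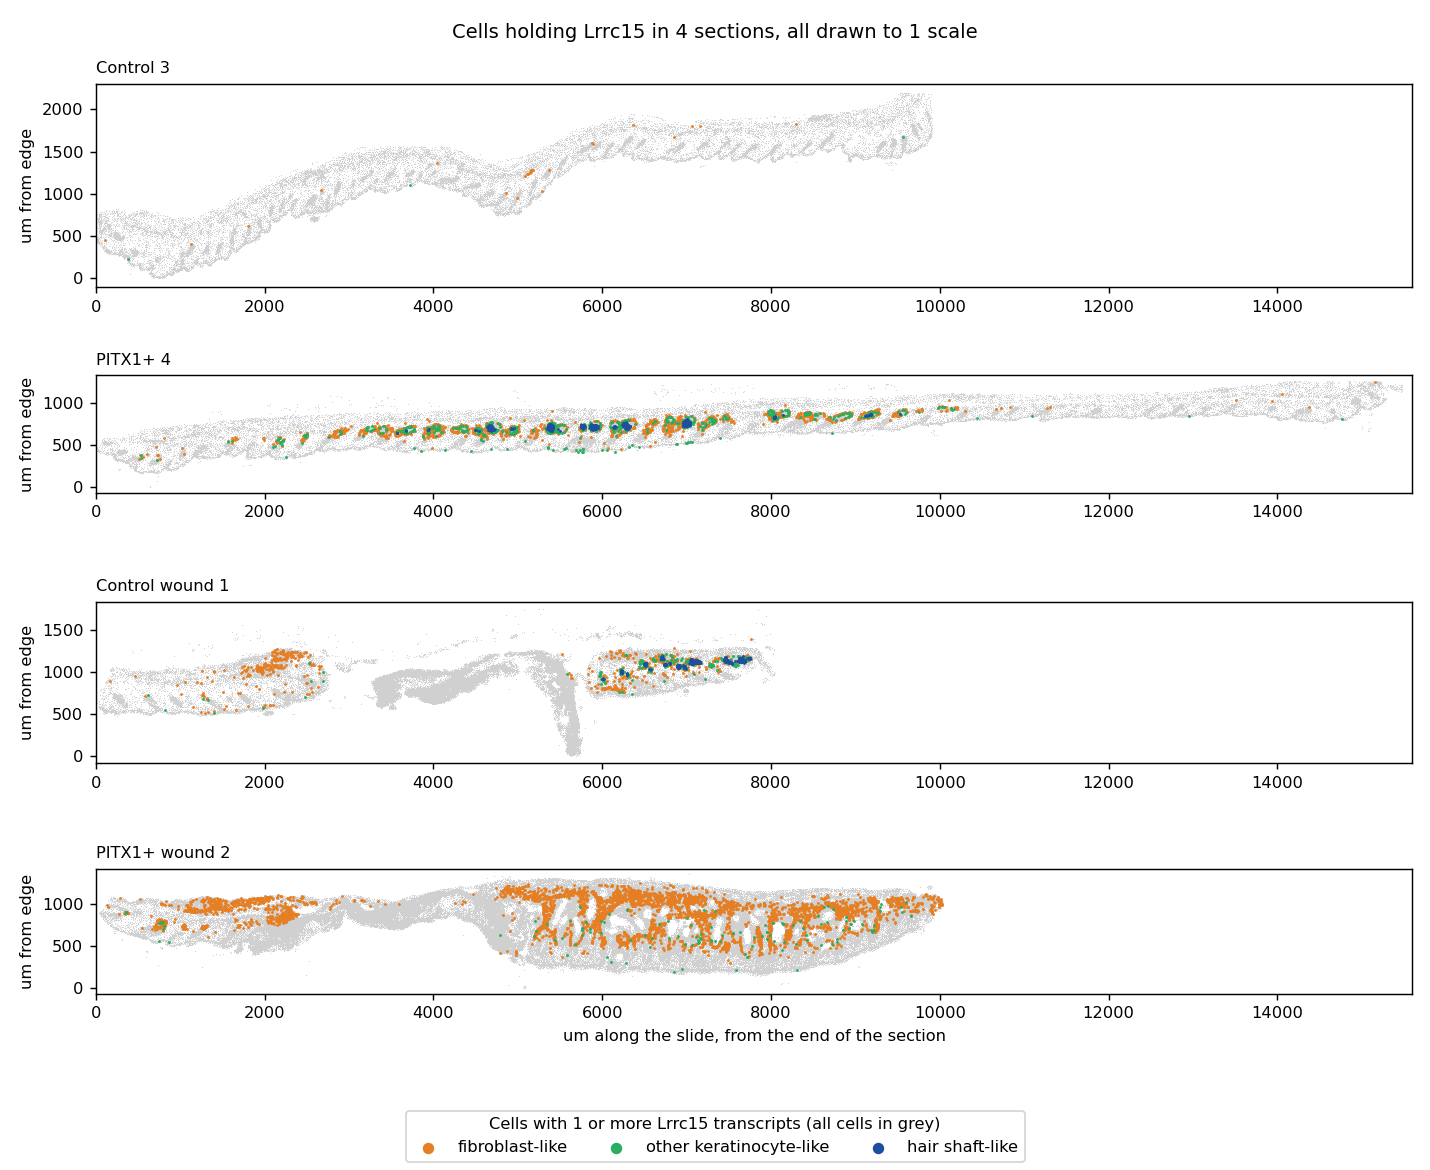
Cells with 1 or more *Lrrc15* transcripts in 4 sections, with axes in µm at 1 scale and all cells in grey. Control section 3 shows few such cells, and 0.214% of its cells held the transcript. PITX1+ section 4 shows a row of follicles with hair shaft-like cells (blue) ringed by keratinocyte-like (green) and fibroblast-like cells (orange). The Control wound shows both patterns, and PITX1+ wound 2 shows mostly fibroblast-like cells.

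Buccal mucosa had little *Lrrc15*. All its sections lay on a slide without Control skin, so tissue and slide cannot be told apart in these comparisons. Over all cells the 7 sections ranged from 8.07 to 205 CPM with a median of 27.8, and an exact two-sided permutation test against Control skin gave p = 0.408. That value rests on Buccal section 3 (205 CPM). Without it the buccal mean was 39.2 ± 31.6 CPM (SD, n = 6) against 101 CPM in Control, with an exact permutation p of 0.0476, while without any other section the p was 0.361 to 0.571. Buccal fibroblast-like cells ranged from 60.3 to 740 CPM with a median of 302, overlapping with Control skin (edgeR log2 fold change 0.67 ± 0.70, adjusted p = 0.486, in a comparison where 103 of 291 genes passed, 35.4%). The log2 fold change was 1.79 without Control section 3 (edgeR adjusted p = 0.087) and 0.27 without Control section 2. Of these, 42 were higher (14.4%) and 61 lower (21%), and library size scaling turned the split to 61 higher and 37 lower. Buccal keratinocyte-like cells had 0 to 4.63 CPM in 6 sections, below all 3 Control sections (log2 -2.91 ± 0.53, edgeR adjusted p = 5.92e-04, with 225 of 325 genes passing, 69.2%). There 101 were higher (31.1%) and 124 lower (38.2%), and library size scaling gave 51 and 202. The share of genes with all buccal sections below all Control sections was not counted. The log2 fold change of *Lrrc15* was -4.35 with library size scaling and -1.65 with transcripts of any quality score. These rest on 0 to 5 transcripts a section, and Buccal section 3 was left out with 2 such cells. The separation holds per transcript and not per cell. The share of these cells with *Lrrc15* was 0% to 0.115% in the buccal and 0.0712% to 0.669% in the Control sections, and the groups overlapped. Buccal cells of this class were deeper, for example 1201667 transcripts in 3990 cells of Buccal section 1 against 143969 in 4214 of Control section 3.

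Among the genes whose level was most like that of *Lrrc15* over 146 sums of a class and a section were *Krtap17-1* (Pearson r = 0.67), *Dsg4* (0.60), *Shh* (0.57), *Cxcl1* (0.55) and *Areg* (0.53), and the least like were *Sox2* (-0.50) and *Prxl2a* (-0.44). Sums of 1 section share a slide and its depth. Over the 7 unwounded skin sections within fibroblast-like cells the closest were *Igfbp4* (0.97), *Hist1h1b* (0.95), *Wif1* (0.94), *Cd44* (0.94), *Cdh11* (0.94) and *Rrm2* (0.93). These 7 points fall into the Control and PITX1+ groups on 2 slides, so the values describe that division.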

How the data were processed

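The authors deposited, per slide, the Xenium transcript list with a quality score and a cell for each molecule, and the cell table with positions. From these lists the authors' instrument pipeline had decoded each molecule and assigned it to a segmented cell before they were deposited. The unit used here was the count of transcripts per gene and cell, a whole number made by counting deposited molecules, with no normalization. The deposited quality score of a transcript was filtered at 20. Sections were cells chained within 100 µm (200 µm in wounds) with 2000 or more cells, in order of mean position across the slide. The first section of each 3-section skin slide and the first 2 of the 4-section slide were taken as Control. In all 14 sections that could be compared, the cell number was nearest to one listed for the same condition in the study's supporting data. Cell numbers per section ranged from 2917 to 83576 and transcripts in cells from 136365 to 5581930.

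Cells with 10 or more transcripts were reduced to 40 principal components and split into 45 clusters (scikit-learn 1.9.0), named from marker lists. Doublets were not called. Levels are CPM of summed counts. Tests used edgeR 4.0.16 on sums per section, with DESeq2 1.42.0 as an alternative. Only the edgeR fit, without the slide covariate, was tested on simulated data. Genes named in the text are *Lrrc15*, *Pitx1*, the 6 genes most and 2 least like it, the 6 most like it in fibroblast-like cells, the 5 largest changes in each direction between cells with and without it, and members of fixed lists. The 3 leading genes of a cluster are named to describe it, and *Krt17*, *Krt6a*, *Krt77* and *Dlx3* near hair shaft-like cells were named after their values were seen. Members and lists were chosen with earlier results of these data known. The values of 1 gene that these rules name are not reported here, and it was taken out of its list, its sums and its plot, while it stayed in the fits and the clustering. Intervals for counts (95%, exact) cover counting error only, and the floor for a count of 0 is 3 counts. Alternatives changed the normalization, filters, quality score, cluster number, covariate, distance and sections, 1 at a time.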

Additional observations from a re-analysis of the deposited data

Results flagged for a closer look

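Over all cells, Buccal section 3 had 205 CPM *Lrrc15*, apart from the other 6 buccal sections, the next of which had 88.2 CPM. The gap was 0.594 of the range of the 7 sections. In 10 groups of sections looked at, this was the single section to stand apart. Chance alone gives such a gap in about 1 of 20 groups if the values are normally distributed, which was not checked here. The section held 2 keratinocyte-like cells, and its fibroblast-like cells had 740 CPM, from 18 transcripts.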

How the results depend on the processing

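No fold change of *Lrrc15* between groups turned under an alternative that gave a value. The order of fibroblast-like over other keratinocyte-like cells turned in PITX1+ section 2 (1411 and 1994 CPM) when hair shaft cells were those with 2 or more *Krtap17-1* transcripts, and was the same in 4 of 4 sections under 5 other settings of transcripts, cells and clusters. The hair shaft-like level in PITX1+ sections was 59022 CPM, and that of other keratinocyte-like cells 2331 CPM, when hair shaft cells were those with 2 or more *Krtap17-1* transcripts. With 30 clusters hair shaft-like Control sums allowed a fit, with a log2 fold change of 6.43. Its Control side rests on 101, 50 and 30 cells with 0, 2 and 1 *Lrrc15* transcripts. At that setting the class also took in 5 to 46 cells of each buccal section, so it is a looser class. At 45 clusters that test could not be fitted. For other keratinocyte-like cells the log2 fold change was 1.34 and 1.40 beyond 100 and 200 µm, 2.22 over the nucleus, 1.85 with any quality score and 4.96 with hair shaft cells defined by *Krtap17-1*, and leaving out 1 section gave 2.79 to 3.95, with the edgeR adjusted p at 0.0596 without Control section 2. For fibroblast-like cells it was 4.06 without the slide covariate, which no longer passed, 2.86 with any quality score, and 3.27 to 3.82 without 1 section. The genes called there numbered 22 with edgeR, 52 with DESeq2 and 0 without the slide covariate, where 32 had an unadjusted p under 0.05, 14 with transcripts of any quality, 9 with 60 clusters, 5 and 1 beyond 100 and 200 µm, and 3 to 38 without 1 section (3, 7 and 37 without PITX1+ sections 2, 3 and 4, 12 without PITX1+ section 1 or Control section 2, and 38 without Control section 3). In other keratinocyte-like cells they were 93, with 176 by DESeq2, 14 without the covariate, 36 and 31 beyond 100 and 200 µm, and 17 to 109 without 1 section (20 and 17 without Control sections 1 and 2, 23 without PITX1+ section 2). Buccal fibroblast-like calls were 103, 52 with 30 clusters and 57 to 171 without 1 section (57 and 171 without Control sections 2 and 3). Library size scaling moved the median log2 fold change of all genes from 0.01 to 0.21 in fibroblast-like and from -0.03 to -0.19 in other keratinocyte-like cells (PITX1+ over Control), and for buccal over Control from -0.24 to 0.11, a turn in sign, and from -0.28 to -1.60. Genes that differed between fibroblast-like cells with and without *Lrrc15* numbered 79 in cells of 30 to 100 transcripts and 54 to 109 without 1 section (54 without PITX1+ section 3, 62 without section 4). In hair shaft-like cells they were 62 to 90, lowest without PITX1+ section 3. Calls were lost in over 50% of alternatives for *Cd68* and *Col17a1* (6 of 8) and *Mmp14* (7 of 8) in hair shaft-like cells, and for *Flt1* (7 of 10), *Dsg3*, *Itgam* and *Lrig1* (6 of 10) in fibroblast-like cells. The call was kept in every alternative for 25 of 58 such genes in fibroblast-like and 17 of 27 in hair shaft-like cells. No paired analysis was possible because section numbers name sections and pair nothing between Control and PITX1+. For buccal keratinocyte-like cells *Lrrc15* failed the gene filter in some alternatives, which gave no value. Few transcripts in Control and buccal sections limit each level there.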
